A study of Homo sapiens with 11 samples.

Results

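MiRNA levels of BE(2)-C, a neuroblastoma line, were compared with those of Hep-G2, a line derived from liver cancer. Both lines were parental and untreated, and each was represented by 2 libraries that the study describes as biological replicates, which makes 4 of the 11 small RNA libraries of the series. These 4 were chosen because they are the ones whose libraries were prepared and sequenced by the same provider, Novogene. BE(2)-C, a clonal subline, was grown in a mixture of EMEM and DMEM/F12, whereas Hep-G2 was grown in DMEM, both with serum. RNA was extracted with TRIzol 24 h after seeding for BE(2)-C according to the protocol, although its sample characteristics give 48 h, and after 48 h for Hep-G2. Line, medium and harvest time cannot be told apart. Of 2588 mature miRNAs in the files, 425 were tested, namely those whose mean in either line reached 10 CPM (reads of a miRNA scaled to the same total of miRNA reads in each library).

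MiRNAs are short RNAs cut from hairpin precursors, and each hairpin can give a mature strand from its 5′ side (5p) and from its 3′ side (3p). Bound to Argonaute proteins they pair with mRNAs mainly through the seed, bases 2 to 8, and lower translation and stability of these mRNAs. Strands with the same seed can share target mRNAs. The imprinted DLK1-MEG3 domain at 14q32 holds one of the largest human miRNA clusters, which is expressed from the maternal chromosome, mainly in embryonic and neural tissue. In liver, miR-122, miR-148a and the miR-192/miR-194 pair are abundant in hepatocytes. The study searched for target mRNAs of the oncofetal RNA-binding protein IGF2BP1 that tumour lines share, and these libraries give the miRNAs that each line contains.

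Sequences of the miRNAs on which the comparison turns were taken from RefSeq (GRCh38.p14), where 381 of the 425 tested and 2281 of all miRNAs were found by name. Each is written 5′ to 3′ with the seed in capitals. The first set shows abundant miRNAs of 14q32 that were higher in BE(2)-C, and the second abundant miRNAs from other loci that were higher in BE(2)-C.
miR-381-3p: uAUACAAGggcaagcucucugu
miR-370-3p: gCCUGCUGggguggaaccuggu
miR-127-3p: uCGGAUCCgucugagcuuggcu
miR-379-5p: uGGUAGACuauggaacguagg
miR-218-5p: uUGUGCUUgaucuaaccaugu
miR-99a-5p: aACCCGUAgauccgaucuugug
miR-139-5p: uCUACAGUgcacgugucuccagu
miR-9-5p: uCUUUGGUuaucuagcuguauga
The next set shows miRNAs that were higher in Hep-G2. It includes clusters with more than 1 seed, such as miR-200b-3p and miR-429 beside miR-200a-3p, and the pair miR-221-3p and miR-222-3p, which share theirs.
miR-224-5p: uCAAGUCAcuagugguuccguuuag
miR-452-5p: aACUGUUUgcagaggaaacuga
miR-21-5p: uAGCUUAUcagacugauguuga
miR-200b-3p: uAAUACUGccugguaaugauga
miR-429: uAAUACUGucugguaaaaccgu
miR-200a-3p: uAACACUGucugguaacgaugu
miR-182-5p: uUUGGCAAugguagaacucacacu
miR-183-5p: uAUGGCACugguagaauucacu
miR-221-3p: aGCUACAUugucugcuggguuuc
miR-222-3p: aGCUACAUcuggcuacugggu
The last set shows miRNAs that share a seed but were higher in opposite lines (miR-148a-3p against miR-152-3p, miR-192-5p against miR-215-5p, and miR-96-5p against miR-1271-5p). The third strand of the first seed, miR-148b-3p, is given with them.
miR-148a-3p: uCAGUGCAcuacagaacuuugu
miR-148b-3p: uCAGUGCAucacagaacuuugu
miR-152-3p: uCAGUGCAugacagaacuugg
miR-192-5p: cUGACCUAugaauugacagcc
miR-215-5p: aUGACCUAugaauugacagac
miR-96-5p: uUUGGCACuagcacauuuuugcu
miR-1271-5p: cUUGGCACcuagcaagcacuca

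BE(2)-C replicates 1 and 2 had 7520904 and 6540070 reads assigned to miRNAs, and those of Hep-G2 11880964 and 12137452. A miRNA without a read can be present at up to 3 reads, which is at most 0.459 CPM in BE(2)-C libraries and 0.253 CPM in those of Hep-G2. Reads were spread over many miRNAs in BE(2)-C, where 50 and 61 miRNAs held 90% of them, but in Hep-G2 only 2 miRNAs, miR-148a-3p and miR-21-5p, did so in each library. Because all other Hep-G2 miRNAs share what these leave, plain CPM places them low. TMM (trimmed mean of M-values) factors of edgeR, which instead balance most miRNAs, differed 5.82-fold between the lines. Each difference is therefore given on both scales as BE(2)-C minus Hep-G2 in log2(value + 1), and a miRNA is called when the limma test passed an adjusted p of 0.05 on both with the same sign.

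The BE(2)-C libraries stood further apart than those of Hep-G2. Over 401 miRNAs with at least 10 CPM, the SD of a single BE(2)-C library was 0.70 on the log2 scale, and 98 of them (24.4%) differed more than 2-fold, 20 being higher in replicate 1 and 78 in replicate 2. In Hep-G2 the SD was 0.20 over 166 miRNAs, of which 1 differed more than 2-fold. Base composition moved with this split: at 100 CPM or more, the median GC content of the mature sequence was 42.9% for 45 miRNAs higher in replicate 2, 48.8% for 8 higher in replicate 1 and 50% for the other 161. Its part in the split was not tested. The largest gaps toward replicate 1 lay at miRNAs known from other cells. MiR-122-5p, the leading miRNA of adult hepatocytes, was at 823 and 5.96 CPM in BE(2)-C versus 64.0 and 50.0 CPM in Hep-G2. MiR-184, known from the lens and cornea, differed by 5.62 on the log2 scale and the red cell miRNA miR-451a by 2.68, with replicate 1 higher. In the other direction, miR-154-3p, miR-656-3p and miR-374a-5p differed by 2.12 to 2.40 on the log2 scale, with replicate 2 higher.

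**Figure D1:**
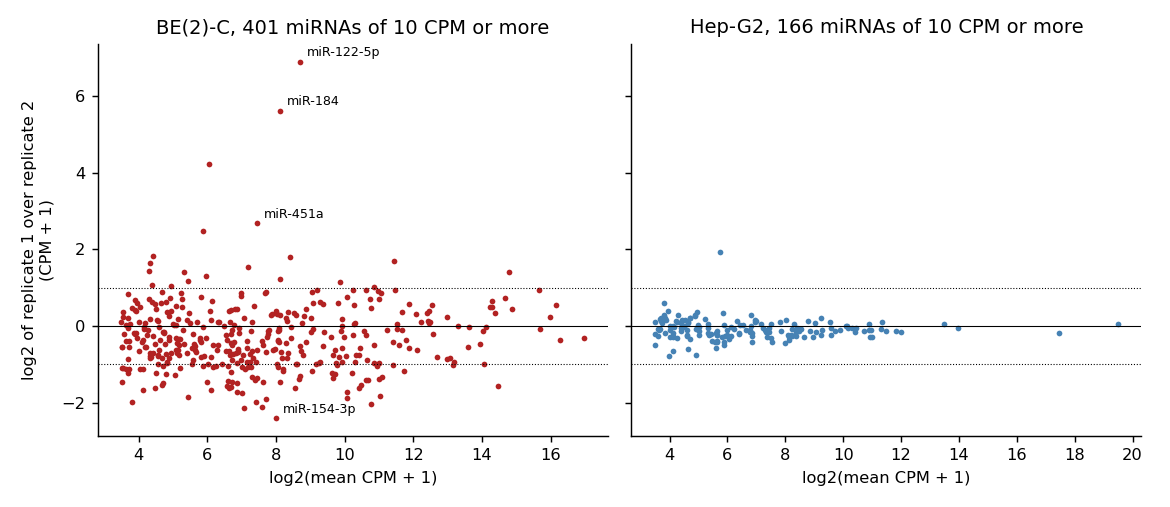
Agreement of the 2 libraries of each line. Each point is a miRNA of at least 10 CPM, the x axis gives log2(mean CPM + 1), the y axis the log2 ratio of replicate 1 over replicate 2, and dotted lines mark 2-fold. The BE(2)-C points spread to 6.89 (miR-122-5p), while 1 of 166 Hep-G2 points lies beyond 2-fold.

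Summed markers were higher in the line of the labelled tissue, but single markers did not all follow. The 9 neuronal markers summed to 86375 and 108062 CPM in BE(2)-C, mostly through miR-218-5p and miR-9-5p. In Hep-G2 they summed to 1917 and 1867 CPM, mostly through miR-128-3p, and 5 and 4 of the 9 had no read. The 5 hepatocyte markers summed to 768677 and 742057 CPM in Hep-G2 against 6507 and 2159 CPM in BE(2)-C, mostly through miR-148a-3p. MiR-122-5p, the defining hepatocyte miRNA, reached only 64.0 and 50.0 CPM in Hep-G2 and was above that in BE(2)-C replicate 1. The hepatocyte marker miR-885-5p was at 6.38 and 6.12 CPM in BE(2)-C compared with 1.85 and 2.39 CPM in Hep-G2, and the values of miR-194-5p overlapped between the lines. Of the neuronal markers, miR-128-3p had more CPM in both Hep-G2 libraries than in either of BE(2)-C. MiR-124-3p was weak in BE(2)-C, with 17.7 and 28.1 CPM in BE(2)-C versus 0 and 0.165 CPM in Hep-G2. The 6 blood markers summed to 715 and 372 CPM in BE(2)-C and to 10.3 and 10.2 CPM in Hep-G2, mostly through miR-486-5p and miR-451a, while miR-144-3p had no read in any of the 4 libraries and miR-223-3p had 3 reads, all in BE(2)-C replicate 1. In bulk RNA, many cells with little of a miRNA and few cells with much of it cannot be told apart.

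Most tested miRNAs were higher in BE(2)-C. On CPM 397 of 425 passed (93.4%), of which 358 (84.2%) were higher in BE(2)-C and 39 (9.18%) in Hep-G2. With TMM factors 310 passed (72.9%), 236 (55.5%) higher in BE(2)-C and 74 (17.4%) in Hep-G2. On both scales with the same sign 275 were called (64.7%), namely 236 higher in BE(2)-C (55.5%) and 39 in Hep-G2 (9.18%). These are the background shares against which counts in groups are set. A mean of 10 CPM was reached by 401 miRNAs in BE(2)-C and by 166 in Hep-G2, so most were tested through BE(2)-C alone. The shares thus depend on the level for testing. Without that filter, 299 miRNAs were called higher in BE(2)-C and 84 in Hep-G2 on both scales. Of the calls, 90.2% were higher in BE(2)-C on CPM and 76.1% with TMM factors. The median difference over all tested miRNAs was 3.59 on CPM and 1.45 with TMM factors, so that the scale alone moved it by 2.14. A further 107 miRNAs passed on CPM only, 20 with TMM factors only, 15 with opposite signs and 8 on neither. Without either Hep-G2 library, when the spread rests on the BE(2)-C pair and the lone Hep-G2 library is taken to vary like it, 222 and 224 miRNAs were called.

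**Figure D2:**
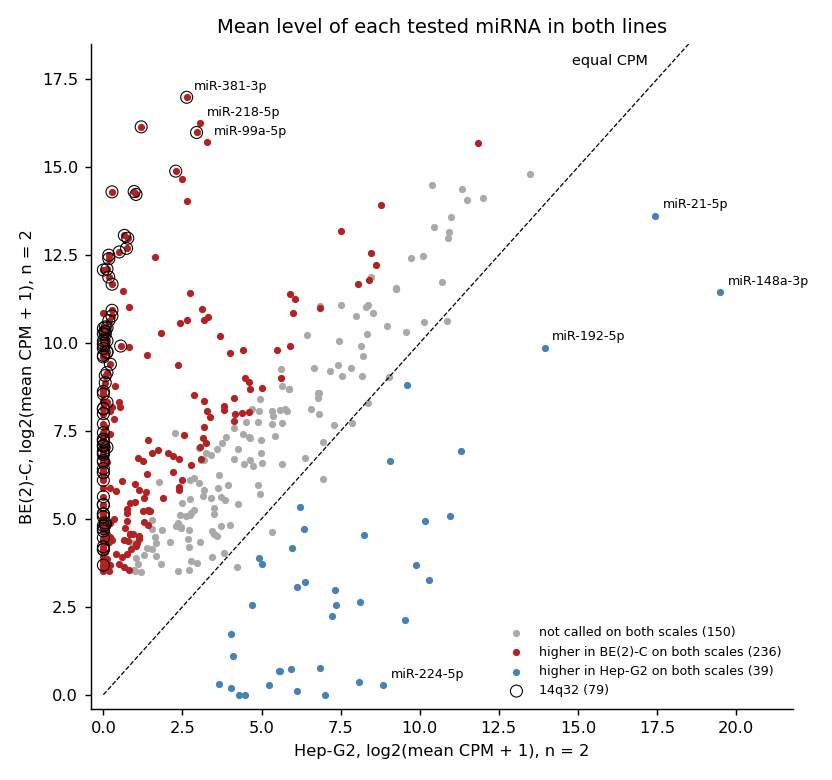
Mean level of the 425 tested miRNAs, Hep-G2 on the x axis and BE(2)-C on the y axis, both as log2(mean CPM + 1) with n = 2 libraries. Colours mark the 236 and 39 miRNAs called on both scales and circles the 79 of 14q32, which lie along the left edge. Grey points, 150 in all, mostly lie above the dashed line of equal CPM.

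The most abundant miRNAs of the lines had little in common. In BE(2)-C, miR-381-3p of 14q32 led with 116043 and 143265 CPM in BE(2)-C against 5.22 and 5.19 CPM in Hep-G2, followed by miR-218-5p, which lies in introns of the axon guidance genes SLIT2 and SLIT3, with 68764 and 88238 CPM in BE(2)-C versus 6.73 and 7.83 CPM in Hep-G2. MiR-370-3p, miR-127-3p and miR-379-5p of 14q32, miR-99a-5p and the PDE2A intronic miR-139-5p also belonged to the first 10 and are described with their groups. The remaining members were present in both lines. MiR-7-5p, known from neurons and endocrine cells, was at 68724 and 35823 CPM in BE(2)-C against 3490.1 and 3838 CPM in Hep-G2. Its difference was 3.76 ± 0.37 on CPM (SE, adjusted p = 0.00047) and 1.22 ± 0.41 with TMM factors (adjusted p = 0.0424). MiR-27b-3p was at 11559 and 34186 CPM in BE(2)-C compared with 1276 and 1420.2 CPM in Hep-G2, and its difference of 3.88 on CPM passed whereas 1.35 with TMM factors did not (adjusted p = 0.0541). MiR-151a-3p, from an intron of PTK2, was at 41479 and 15542 CPM in BE(2)-C compared with 11622 and 11165 CPM in Hep-G2 and passed on neither scale (adjusted p = 0.0794 and 0.0658).

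Of the first 10 in Hep-G2, 4 were called higher there. MiR-148a-3p was at 752841 and 725599 CPM in Hep-G2 compared with 4230.1 and 1311 CPM in BE(2)-C, a difference of -8.29 ± 0.59 on CPM (SE, adjusted p = 0.000151) and -10.83 ± 0.62 with TMM factors (adjusted p = 3.77e-05). MiR-21-5p, a miRNA raised in many tumours, was at 166574 and 189665 CPM in Hep-G2 compared with 12460.2 and 12749 CPM in BE(2)-C, with a difference of -3.82 on CPM and -6.36 with TMM factors. MiR-192-5p, driven by hepatocyte nuclear factors in liver and gut, was at 15552 and 16165 CPM in Hep-G2 compared with 1288 and 578 CPM in BE(2)-C, with a difference of -4.20 on CPM and -6.73 with TMM factors. MiR-146b-5p, which restrains NF-kappaB signalling, was at 2424 and 2576 CPM in Hep-G2 against 114 and 129 CPM in BE(2)-C, with a difference of -4.35 on CPM and -6.88 with TMM factors. The others, miR-151a-3p, miR-30d-5p, miR-7-5p, miR-26a-5p, miR-143-3p and miR-92a-3p, all had higher CPM in BE(2)-C. Of these, miR-30d-5p, miR-26a-5p, miR-143-3p and miR-92a-3p passed on CPM with differences of 2.11, 2.48, 3.03 and 2.60, but with TMM factors lay at -0.43, -0.05, 0.49 and 0.06 without passing.

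The 14q32 cluster separated the lines most widely. Its 92 mature miRNAs together held 44.9% and 43.5% of the BE(2)-C reads, while they summed to 26.0 and 22.7 CPM in Hep-G2. In reads this was 6221168 over both BE(2)-C and 585 over both Hep-G2 libraries, and the Hep-G2 level was 0.00551% of that in BE(2)-C. All 79 members that reached the level for testing were called higher in BE(2)-C, in a comparison where 55.5% of all miRNAs were. Members can reach that level through BE(2)-C alone, so the count is a description of the locus. Differences ranged from 3.62 to 14.92 on CPM and from 2.51 to 12.81 with TMM factors. The call held for all 79 without any 1 of the 4 libraries. Summed lists were given no test, since an exact permutation test of 2 libraries against 2 cannot go below p = 0.333.

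Members of the cluster lie on the plus strand of chromosome 14 over 214 kb between MIR770 (chr14:100852390-100852487, GRCh38), which overlaps an exon of the non-coding gene MEG3, and the end of the cluster near MIR656 (chr14:101066724-101066801), in an intron of MEG9. Both ends of the locus were expressed. On the MEG3 side, which holds miRNAs antisense to RTL1, 16 of 16 tested miRNAs were called higher in BE(2)-C, with a median difference of 10.31 on CPM and 8.99 with TMM factors. In the larger block from miR-379 to miR-656, 63 of 63 were called, with a median of 8.10 on CPM and 6.73 with TMM factors. Set to the bound that 3 reads per library allow, members without a Hep-G2 read raise these medians to 11.27 and 9.21 on the MEG3 side and to 9.43 and 7.50 in the larger block. Within BE(2)-C, levels of tested members ranged from 11.9 to 129654 CPM, and 29 of them reached 1000 CPM.

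**Figure D3:**
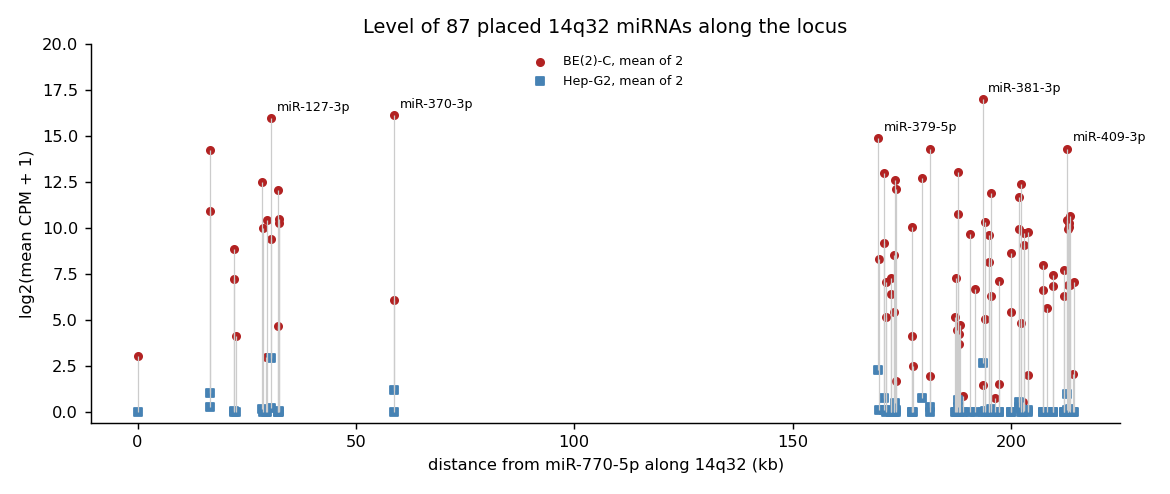
Levels along 14q32 for the 87 members with a RefSeq position. The x axis gives the distance from miR-770-5p in kb and the y axis log2(mean CPM + 1), n = 2 libraries a line, with grey lines joining the values of 1 miRNA. BE(2)-C points rise to 129654 CPM (miR-381-3p), and no Hep-G2 mean exceeds 6.71 CPM.

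On the MEG3 side, miR-370-3p, whose hairpin lies in introns of MEG8 and MIR493HG (chr14:100911139-100911213), was at 86019 and 58788 CPM in BE(2)-C versus 1.26 and 1.32 CPM in Hep-G2. Its difference was 14.92 ± 0.30 on CPM (SE, adjusted p = 1.74e-05) and 12.81 ± 0.35 with TMM factors (adjusted p = 9.7e-06). In log2(value + 1) these were the widest of all miRNAs tested on both scales. Adding 1 understates differences of miRNAs under 1 CPM in Hep-G2, so plain ratios need not have this order. MiR-127-3p, antisense to RTL1 and within an exon of MIR493HG (chr14:100882979-100883075), was at 70105 and 59481 CPM in BE(2)-C versus 6.90 and 6.51 CPM in Hep-G2. MiR-493-3p was at 22385 and 15847 CPM in BE(2)-C versus 1.43 and 0.659 CPM in Hep-G2 and miR-431-5p, also antisense to RTL1, at 5982 and 5568 CPM in BE(2)-C versus 0.168 and 0.0824 CPM in Hep-G2. The lines did not overlap at any of them. MiR-432-5p, at 4768 and 3851 CPM in BE(2)-C, had no read in Hep-G2. Against a floor of 3 reads per Hep-G2 library it was at least 17067-fold higher on CPM and at least 2901-fold with TMM factors.

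In the block from miR-379 to miR-656, miR-381-3p, in an intron of MEG9, had a difference of 14.34 ± 0.25 on CPM (SE, adjusted p = 1.74e-05) and 11.95 ± 0.26 with TMM factors (adjusted p = 9.7e-06). MiR-379-5p, at the start of the block (chr14:101022066-101022132, in an intron of MEG8), was at 34898 and 25587 CPM in BE(2)-C against 4.71 and 3.05 CPM in Hep-G2. MiR-495-3p was at 24494 and 15736 CPM in BE(2)-C against 0.168 and 0.247 CPM in Hep-G2, with a difference of 13.99 on CPM and 12.41 with TMM factors. MiR-409-3p was at 23652 and 16828 CPM in BE(2)-C versus 1.43 and 0.494 CPM in Hep-G2, levels close to those of miR-495-3p. MiR-654-3p was at 6120.3 and 10951 CPM in BE(2)-C against 0.673 and 0.494 CPM in Hep-G2, and miR-134-5p, which acts at dendrites through LIMK1, at 6015 and 4755 CPM in BE(2)-C versus 0.253 and 0 CPM in Hep-G2. Differences of miR-409-3p, miR-493-3p, miR-127-3p, miR-379-5p, miR-654-3p, miR-431-5p and miR-134-5p lay between 12.22 and 13.35 on CPM and between 10.25 and 11.37 with TMM factors. MiR-431-5p and miR-134-5p had 3 Hep-G2 reads each, and their CPM ratios of 46353 (95% interval 15860.5 to 224773, exact) and 43465 (14872 to 210769) cover counting error only. Apart from miR-432-5p, the 10 members of the locus named here stood among the 12 widest CPM differences toward BE(2)-C at 100 CPM or more.

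In Hep-G2, 73 of the 79 tested members stayed under 1 CPM in both libraries, and 44 had no read in either. Of the 69 tested miRNAs of any locus without a Hep-G2 read, these 44 made up 63.8%, and they were 55.7% of the tested members. Members with more reads in BE(2)-C tended to have more in Hep-G2. Across the 79, Hep-G2 reads and the BE(2)-C level had a Spearman correlation of 0.75, given as a description since the points share libraries, provider and depth. The replicates of BE(2)-C differed more than 2-fold at 18 of the 79 members, all higher in replicate 2, without an effect on the call. Where these few Hep-G2 reads came from was not tested.

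Chromosome 14 outside the cluster behaved less uniformly. Of 7 tested miRNAs there, 5 were called higher in BE(2)-C, 1 was called higher in Hep-G2 and 1 was not called. MiR-342-3p was at 2618 and 1401 CPM in BE(2)-C against 5.72 and 9.72 CPM in Hep-G2, a difference of 7.82 on CPM and 5.39 with TMM factors. MiR-625-3p went the other way, with 12.6 and 14.8 CPM in BE(2)-C versus 28.4 and 30.2 CPM in Hep-G2 and a difference of -1.04 on CPM and -3.42 with TMM factors. MiR-1260a, at 58.4 and 198 CPM in BE(2)-C against 7.66 and 6.67 CPM in Hep-G2, passed on CPM but not with TMM factors. Without the 14q32 members, 346 miRNAs were tested, of which 157 (45.4%) were called higher in BE(2)-C and 39 (11.3%) in Hep-G2, with median differences of 3.20 on CPM and 0.88 with TMM factors.

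MiRNAs of neurons formed the second group that was higher in BE(2)-C. Of 40 mature miRNAs listed as neuronal or neuroendocrine, 24 were tested and 19 were called higher in BE(2)-C, 0 in Hep-G2, with a median difference of 6.65 on CPM and 5.11 with TMM factors beside 3.59 and 1.45 for all tested. With the 6 members that had no Hep-G2 read at their bound, it was 7.54 and 5.54. Of the 24, 11 stayed under 1 CPM in both Hep-G2 libraries. Members can reach the level for testing through BE(2)-C alone, so count and median are a description. The summed level of the list was 201169 and 173240 CPM in BE(2)-C, against 5511 and 5823 CPM in Hep-G2. The difference of miR-218-5p was 13.20 ± 0.27 on CPM (SE, adjusted p = 1.74e-05) and 10.77 ± 0.27 with TMM factors (adjusted p = 9.7e-06). Its 2 hairpins lie in SLIT2 on chromosome 4 (chr4:20528275-20528384) and in SLIT3 on chromosome 5 (chr5:168768146-168768255). MiR-9-5p, of neural progenitors, has hairpins on 3 chromosomes and was at 15875 and 17555 CPM in BE(2)-C compared with 2.78 and 7.83 CPM in Hep-G2. Its difference was 11.50 on CPM and 9.13 with TMM factors. MiR-139-5p was at 32565 and 19589 CPM in BE(2)-C against 3.62 and 5.60 CPM in Hep-G2, with a difference of 12.16 on CPM and 9.79 with TMM factors. In these 3 the lines were separated by more than 3 orders of magnitude in CPM.

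MiR-7-5p, also of this list and described above, was abundant in both lines. Several other members of the neuronal list were lower in BE(2)-C but absent or nearly so in Hep-G2. MiR-375, known from pancreatic islets and neuroendocrine cells, was at 6373 and 4866 CPM in BE(2)-C compared with 1.77 and 2.47 CPM in Hep-G2, with a difference of 10.81 on CPM and 8.58 with TMM factors. MiR-129-5p was at 3724 and 1941 CPM in BE(2)-C compared with 0.758 and 0.330 CPM in Hep-G2, with a difference of 10.78 on CPM and 8.95 with TMM factors. MiR-137, which acts in neuronal maturation, was at 54.9 and 153 CPM in BE(2)-C and had no read in Hep-G2, like miR-9-3p, miR-138-5p and miR-129-2-3p. The 5 tested members that were not called were miR-128-3p, miR-128-1-5p, miR-132-3p, miR-132-5p and miR-330-3p. MiR-128-3p, a miRNA abundant in brain, was at 1446 and 1692 CPM in BE(2)-C compared with 1908 and 1851 CPM in Hep-G2, and passed with TMM factors only. Without either Hep-G2 library 17 instead of 19 were called, and without BE(2)-C replicate 2 a member was also called higher in Hep-G2.

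The cluster of miR-99a and let-7c on chromosome 21 was high in BE(2)-C as well. All 5 tested miRNAs of chromosome 21 were called higher in BE(2)-C. MiR-99a-5p (chr21:16539089-16539169, in an intron of MIR99AHG) was at 51964 and 54466 CPM in BE(2)-C against 7.66 and 9.72 CPM in Hep-G2, a difference of 12.43 ± 0.25 on CPM (SE, adjusted p = 1.74e-05) and 9.98 ± 0.27 with TMM factors (adjusted p = 9.7e-06). Its neighbour let-7c-5p was at 1444 and 1593 CPM in BE(2)-C compared with 3.70 and 5.03 CPM in Hep-G2, with a difference of 8.16 on CPM and 5.79 with TMM factors. MiR-125b-5p, encoded in the same host and on chromosome 11, was at 853 and 1648 CPM in BE(2)-C against 4.12 and 0.989 CPM in Hep-G2, with a difference of 8.54 on CPM and 6.34 with TMM factors. The related cluster of miR-99b, let-7e and miR-125a on chromosome 19 differed less, and 2 of its 6 tested miRNAs were called, both higher in BE(2)-C. Over the whole let-7 family 7 of 14 were called higher in BE(2)-C and 0 in Hep-G2, a share below the 55.5% of all tested miRNAs. Let-7b-5p, at 2321 and 3110.2 CPM in BE(2)-C versus 7.58 and 3.87 CPM in Hep-G2, had the widest difference, with 8.70 on CPM and 6.30 with TMM factors. Let-7f-5p, in contrast, lay at 2.32 on CPM and -0.22 with TMM factors and was not called. Members of let-7 differ by few bases, so that reads may be shared among them.

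**Figure D4:**
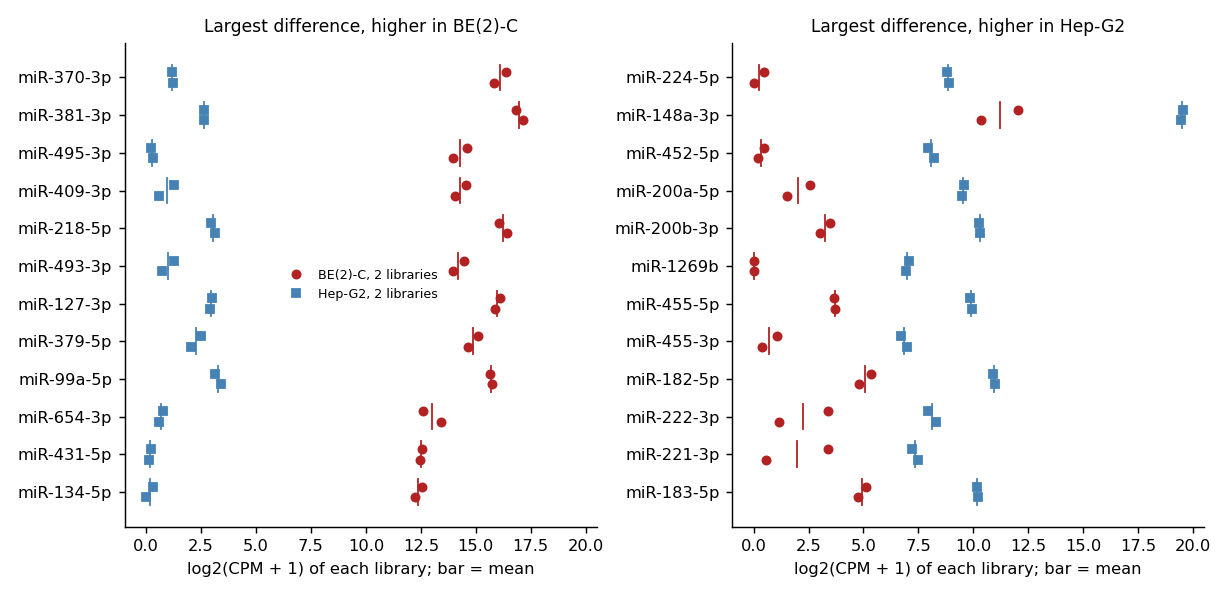
Levels of the 12 miRNAs with the widest difference in each direction among those called on both scales with at least 100 CPM in the higher line. The x axes give log2(CPM + 1), points are the 2 libraries of each line and bars their means. No library of 1 line reaches the other line at any of the 24 miRNAs, and replicates lie furthest apart in BE(2)-C at miR-221-3p, miR-222-3p and miR-148a-3p.

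Fewer miRNAs were higher in Hep-G2. Of the 39 called, 20 reached 100 CPM in Hep-G2. The pair miR-224/miR-452, within GABRE on chromosome X (chrX:151958578-151958658 and chrX:151959628-151959712, minus strand), was nearly absent from BE(2)-C. MiR-224-5p, often raised in liver cancer, was at 441 and 481 CPM in Hep-G2 versus 0.399 and 0 CPM in BE(2)-C. Its difference was -8.61 ± 0.31 on CPM (SE, adjusted p = 2.9e-05) and -10.00 ± 0.28 with TMM factors (adjusted p = 9.7e-06). MiR-452-5p was at 248 and 293 CPM in Hep-G2 versus 0.399 and 0.153 CPM in BE(2)-C, with a difference of -7.74 on CPM and -9.19 with TMM factors. The BE(2)-C libraries held 3 and 0 reads of miR-224-5p, a CPM ratio of 2160.2 between Hep-G2 and BE(2)-C with an exact 95% counting interval of 739 to 10477. MiR-1269b had no read in BE(2)-C and 132 and 120.2 CPM in Hep-G2, and was at least 275-fold higher there on CPM against the floor of 3 reads per BE(2)-C library.

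Epithelial miRNAs were higher in Hep-G2. The miR-200 family represses the transcription factors ZEB1 and ZEB2 and is encoded at a pair of loci. At the one on chromosome 1 (chr1:1167104-1167198 for miR-200b), 4 of 4 tested strands were called higher in Hep-G2, beside 9.18% of all tested miRNAs. MiR-200b-3p was at 1219 and 1276 CPM in Hep-G2 versus 9.97 and 7.03 CPM in BE(2)-C, with a difference of -7.05 on CPM and -9.39 with TMM factors. MiR-200a-5p was at 760.5 and 714 CPM in Hep-G2 compared with 4.92 and 1.83 CPM in BE(2)-C, with a difference of -7.49 on CPM and -9.57 with TMM factors. MiR-429, with the seed of miR-200b-3p, was at 62.5 and 74.6 CPM in Hep-G2 compared with 0 and 0.153 CPM in BE(2)-C. From the locus on chromosome 12, miR-200c-3p was at 83.2 and 75.9 CPM in Hep-G2 compared with 23.5 and 26.6 CPM in BE(2)-C, a smaller difference of -1.63 on CPM and -4.08 with TMM factors. With miR-203a-3p, a keratinocyte miRNA, the list had 6 tested members, 5 higher in Hep-G2 and 1 in BE(2)-C, and its median difference was -4.76 on CPM and -6.49 with TMM factors. That 1 was miR-203a-3p, at 27.5 and 12.5 CPM in BE(2)-C against 0.253 and 0.906 CPM in Hep-G2. Its call was lost without either BE(2)-C library and without Hep-G2 replicate 1. Not all calls of the list toward Hep-G2 held without either Hep-G2 library.

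The cluster of miR-183, miR-96 and miR-182 on chromosome 7, which is known from sensory organs, had 3 of 3 tested strands higher in Hep-G2. The share over all tested miRNAs was 9.18%. MiR-182-5p was at 1907 and 2042 CPM in Hep-G2 versus 39.2 and 26.9 CPM in BE(2)-C and miR-183-5p at 1132 and 1173 CPM in Hep-G2 compared with 33.6 and 25.5 CPM in BE(2)-C, with differences of -5.88 and -5.25 on CPM. The pair miR-221/miR-222 on chromosome X, which lowers the cell cycle inhibitor CDKN1B, was also higher in Hep-G2 in 3 of 3. MiR-222-3p was at 241 and 311 CPM in Hep-G2 against 9.31 and 1.22 CPM in BE(2)-C and miR-221-3p at 147.5 and 179 CPM in Hep-G2 compared with 9.31 and 0.459 CPM in BE(2)-C. The BE(2)-C replicates of both differed widely without reaching the Hep-G2 level. MiR-34a-5p was at 54.6 and 65.4 CPM in Hep-G2 versus 1.33 and 0 CPM in BE(2)-C, with a difference of -5.32 on CPM and -6.85 with TMM factors, and no other member of the miR-34/miR-449 family was tested. The strands miR-455-5p and miR-455-3p, from an intron of COL27A1, were at 909.7 and 974 CPM in Hep-G2 versus 11.7 and 12.2 CPM in BE(2)-C, and at 104 and 125 CPM in Hep-G2 compared with 1.06 and 0.306 CPM in BE(2)-C. MiR-146a-5p, the relative of miR-146b-5p, was at 294 and 311 CPM in Hep-G2 compared with 23.5 and 20.9 CPM in BE(2)-C.

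Of 20 mature miRNAs listed for hepatocytes and liver tumours, 14 were tested, of which 8 were called higher in Hep-G2 and 1 in BE(2)-C. Over all tested miRNAs, 9.18% were called higher in Hep-G2. The median difference of the list was -3.26 on CPM and -5.20 with TMM factors, beside 3.59 and 1.45 for all tested. The 8 were both strands of miR-148a, of miR-455 and of miR-200a, miR-192-5p and miR-194-3p. Both strands of miR-200a are also counted among the epithelial miRNAs. The 1 that went against them was miR-215-5p, which has the seed of miR-192-5p and differs from it outside the seed. It was at 2346 and 2515 CPM in BE(2)-C versus 57.9 and 74.3 CPM in Hep-G2, a difference of 5.19 ± 0.27 on CPM (SE, adjusted p = 6.68e-05) and 2.66 ± 0.28 with TMM factors (adjusted p = 0.00042). The 5 that were not called included miR-122-5p, miR-194-5p at 159.7 and 258 CPM in BE(2)-C versus 219 and 240.4 CPM in Hep-G2, and miR-101-3p at 5719 and 5281 CPM in BE(2)-C compared with 810.1 and 887 CPM in Hep-G2. Without BE(2)-C replicate 1, in which miR-122-5p was high, and without replicate 2, 3 instead of 1 were called higher in BE(2)-C.

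A ratio between miRNAs of the same library does not depend on scaling. MiR-192-5p reads were 0.549 and 0.230 times those of miR-215-5p in BE(2)-C but 269 and 218 times in Hep-G2. Against miR-194-5p, which is encoded beside both miR-192 (chromosome 11) and miR-215 (chromosome 1), miR-192-5p was 8.06 and 2.24 times as abundant in BE(2)-C and 71.0 and 67.2 times in Hep-G2. MiR-148a-3p stood to miR-152-3p, its relative in an intron of COPZ2, as 2.74 and 0.605 in BE(2)-C and as 12598 and 11248 in Hep-G2. The direction of the BE(2)-C ratio of miR-148a-3p to miR-152-3p thus turned between its replicates, whereas both lay far below those of Hep-G2. MiR-152-3p itself was higher in BE(2)-C, with 1545 and 2166 CPM in BE(2)-C compared with 59.8 and 64.5 CPM in Hep-G2 and a difference of 4.86 on CPM and 2.33 with TMM factors. MiR-148b-3p, the third of this seed, was at 2064 and 4707 CPM in BE(2)-C against 1597 and 1750.1 CPM in Hep-G2 and was not called, since its difference of 0.90 on CPM did not pass (adjusted p = 0.112), whereas -1.64 with TMM factors did.

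Summing strands by seed gave 319 tested seeds, of which 224 (70.2%) were called on both scales, 194 (60.8%) higher in BE(2)-C and 30 (9.4%) in Hep-G2. The sums hold only the 2281 miRNAs found in the RefSeq table, so that abundant miRNAs such as miR-151a-3p and miR-30d-5p are in none of them. In Hep-G2 the seed CAGUGCA of miR-148/miR-152 made up 75.4% and 72.7% of the reads, against 0.784% and 0.818% in BE(2)-C. It was followed by AGCUUAU of miR-21 with 16.7% and 18.97%, and by UGACCUA of miR-192/miR-215 with 1.56% and 1.62%. GGAAGAC of miR-7, AUUGCAC of miR-25/miR-92 and UCAAGUA of miR-26 each made up under 0.4% of the Hep-G2 reads. In BE(2)-C the first seed was AUACAAG of miR-381 with 11.6% and 14.3%, followed by UGUGCUU of miR-218 with 6.88% and 8.82%, and CCUGCUG of miR-370 with 8.60% and 5.88%. CGGAUCC of miR-127, ACCCGUA of miR-99/miR-100 and GGAAGAC of miR-7 completed the first 6 of these sums.

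At 3 seeds, strands were called in opposite directions. The seed CAGUGCA held miR-152-3p (higher in BE(2)-C) and miR-148a-3p (higher in Hep-G2), and as a sum it was higher in Hep-G2 with a difference of -6.53 on CPM and -9.07 with TMM factors. The seed UGACCUA held miR-215-5p and miR-192-5p. The sum was at 15609.8 and 16239.5 CPM in Hep-G2 and 3633 and 3093 CPM in BE(2)-C and was called higher in Hep-G2, by less than miR-192-5p alone. The seed UUGGCAC held miR-1271-5p, at 4.65 and 21.3 CPM in BE(2)-C versus 0 and 0 CPM in Hep-G2, and miR-96-5p, at 7.58 and 8.72 CPM in BE(2)-C compared with 76.3 and 89.2 CPM in Hep-G2. The seed ACCCGUA changed its leading strand, with miR-99a-5p giving 86.5% of it in BE(2)-C and miR-99b-5p 96.8% in Hep-G2.

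Families linked to growth were called in part of their members. MYC and MYCN activate the miR-17-92 cluster, and of 16 tested strands of it and its paralogs 8 were called higher in BE(2)-C and 0 in Hep-G2, which is close to the background share of 55.5%. The median difference was 3.44 on CPM and 1.20 with TMM factors. MiR-93-5p, for example, was at 1373 and 2698 CPM in BE(2)-C compared with 106 and 121 CPM in Hep-G2, with a difference of 4.08 on CPM and 1.55 with TMM factors. Without either Hep-G2 library, 1 of the 16 was called. In the miR-15/miR-16 family, which slows the cell cycle, 4 of 9 were called higher in BE(2)-C, below the background share, among them miR-503-5p, at 165 and 217 CPM in BE(2)-C versus 0.0842 and 0 CPM in Hep-G2, and miR-424-3p, which had no Hep-G2 read. All 4 tested strands of the miR-424/miR-503/miR-450b locus on chromosome X were called higher in BE(2)-C. Of the miR-23/miR-27/miR-24 family 8 of 10 were, including miR-24-3p, at 13099 and 18224 CPM in BE(2)-C against 457 and 417 CPM in Hep-G2, a difference of 5.14 on CPM and 2.61 with TMM factors.

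The miR-181 family, best known from lymphocytes, had 7 of 7 tested strands higher in BE(2)-C, beside 55.5% of all tested miRNAs. MiR-181b-5p was at 1143 and 2102 CPM in BE(2)-C compared with 8.50 and 7.74 CPM in Hep-G2 and miR-181a-5p at 708 and 1649 CPM in BE(2)-C versus 12.7 and 11.2 CPM in Hep-G2, with differences of 4.97 and 3.92 with TMM factors. Among miRNAs encoded in the HOX clusters, 4 of 5 were called higher in BE(2)-C, beside the same share. In both groups some calls were lost without either Hep-G2 library. MiR-615-3p was at 901 and 992 CPM in BE(2)-C against 1.09 and 0.412 CPM in Hep-G2 and miR-10b-5p at 7143 and 4889.7 CPM in BE(2)-C compared with 344 and 364 CPM in Hep-G2. The difference of miR-615-3p was 9.10 on CPM and 7.19 with TMM factors, that of miR-10b-5p 4.06 on CPM and 1.52 with TMM factors. The exception, miR-10a-5p, differed strongly between the BE(2)-C replicates, with 99.3 and 17.1 CPM in BE(2)-C versus 10.9 and 11.9 CPM in Hep-G2.

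MiR-29 and miR-30 did not follow the majority. Of 3 tested miR-29 strands, 0 were called on both scales by limma, although all 3 passed on CPM and 1, miR-29b-3p, passed with TMM factors with the opposite sign. Without BE(2)-C replicate 2, 1 was called higher in BE(2)-C. Of 10 tested miR-30 strands 1 was called in each direction, and all 10 passed on CPM. MiR-30e-3p was higher in Hep-G2, at 759 and 782 CPM in Hep-G2 compared with 491 and 410.2 CPM in BE(2)-C, a difference of -0.78 ± 0.25 on CPM (SE, adjusted p = 0.0318) and -3.31 ± 0.29 with TMM factors (adjusted p = 0.000206). Without either Hep-G2 library this call was lost, and without BE(2)-C replicate 1, 2 instead of 1 were called higher in BE(2)-C. Besides let-7, the miRNAs singled out in the text of the study for predicted pairing with candidate IGF2BP1 targets (miR-27b, miR-30, miR-93, miR-186 and miR-340) gave 17 tested strands, a list made with these libraries in view. Of these 4 were called higher in BE(2)-C and 1 in Hep-G2, and 2, both strands of miR-340, passed with opposite signs on the 2 scales. Without either Hep-G2 library the counts were 1 and 0.

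**Figure D5:**
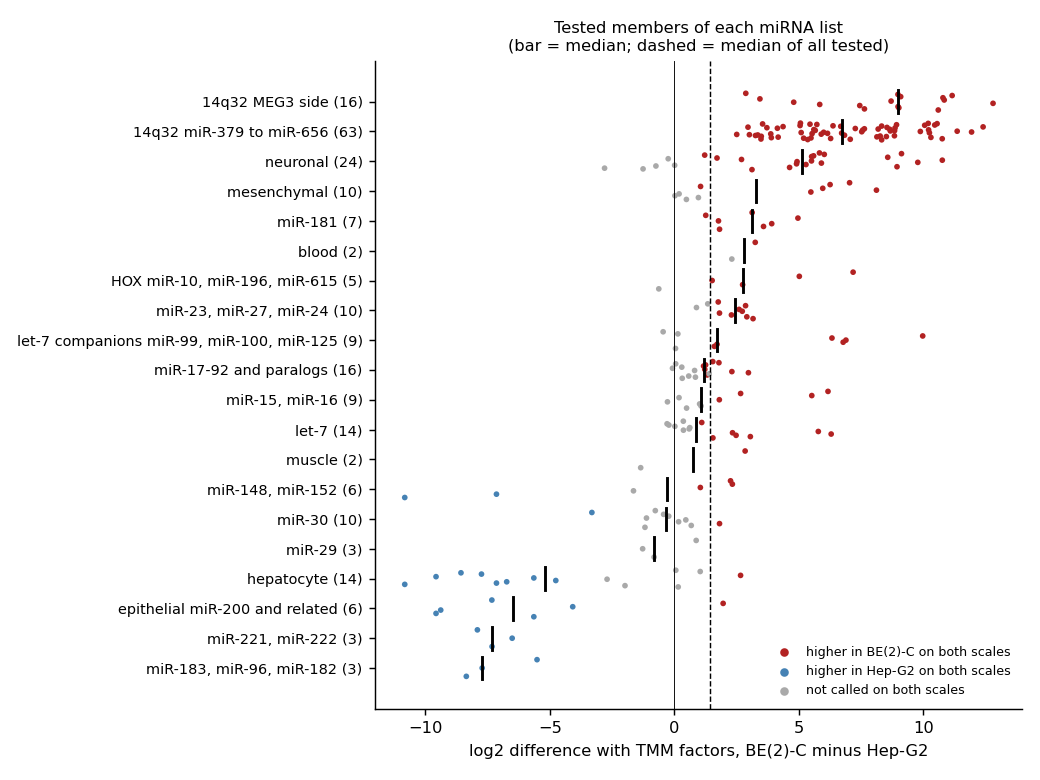
Difference of every tested member of each list that had at least 2, with TMM factors, BE(2)-C minus Hep-G2 in log2(value + 1), with the number of tested members in parentheses. Bars give the list medians and the dashed line the median of all tested miRNAs, 1.45. Both parts of 14q32 lie wholly on the BE(2)-C side, and the miR-221/miR-222 and miR-183/miR-96/miR-182 lists wholly on the Hep-G2 side.

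Markers of other cell types were measured beside these groups. Of 10 tested strands listed as mesenchymal, 6 were called higher in BE(2)-C and 0 in Hep-G2, close to the background share of 55.5%, with a median difference of 5.69 on CPM and 3.27 with TMM factors. They were the 4 strands of miR-199a and miR-199b and both of miR-214. Among them, miR-199a-3p and miR-199b-3p have the same mature sequence, so their calls are not separate. MiR-199a-5p was at 1143 and 2982 CPM in BE(2)-C versus 1.01 and 0.494 CPM in Hep-G2, with a difference of 10.06 on CPM and 8.12 with TMM factors, and miR-214-3p at 206 and 367 CPM in BE(2)-C versus 0.253 and 0.165 CPM in Hep-G2. The smooth muscle and fibroblast miRNA miR-143-3p was abundant in both lines, at 23979 and 18824 CPM in BE(2)-C compared with 2702 and 2519 CPM in Hep-G2, and none of the 4 strands of miR-143 and miR-145 was called. Among blood miRNAs, miR-486-5p was called higher in BE(2)-C, at 412 and 325 CPM in BE(2)-C compared with 5.98 and 6.51 CPM in Hep-G2, and miR-451a, at 299 and 46.0 CPM in BE(2)-C versus 4.12 and 3.46 CPM in Hep-G2, was not. Without BE(2)-C replicate 2, miR-451a was called as well. The endothelial miR-126-3p was at 548.6 and 479.5 CPM in BE(2)-C against 21.5 and 21.4 CPM in Hep-G2 and was called higher in BE(2)-C. The muscle miRNA miR-1-3p, at 287 and 219 CPM in BE(2)-C versus 122 and 100.1 CPM in Hep-G2, passed on both scales with opposite signs. Whether other cells or another RNA source gave any of these reads was not tested.

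Clusters known from placenta and pluripotent cells were nearly silent in both lines. The 61 mature miRNAs of the chromosome 19 cluster C19MC summed to 7.45 and 0.153 CPM in BE(2)-C and to 0.505 and 0.494 CPM in Hep-G2. The 18 of the stem cell clusters miR-371-373 and miR-302 summed to 9.44 and 3.21 CPM in BE(2)-C and to 8.75 and 10.8 CPM in Hep-G2. The 30 of the testis-linked miR-506-514 cluster summed to at most 3.86 CPM in any library. None of these 109 reached the level for testing.

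No cluster of neighbouring hairpins held calls in both directions. Tested miRNAs within 10 kb of each other formed 24 clusters with at least 2 hairpins. Of these clusters, 14 held miRNAs called higher in BE(2)-C, 6 held miRNAs called higher in Hep-G2, and 0 held both. Over all tested miRNAs, 55.5% were called higher in BE(2)-C and 9.18% in Hep-G2. With so few calls toward Hep-G2, the lack of mixed clusters is given as a description. In 6 clusters every tested strand was called higher in BE(2)-C, namely both parts of 14q32, miR-99a/let-7c, the miR-424/miR-503/miR-450b locus, and miR-181a/b and miR-181c/d. In 5 every tested strand was called higher in Hep-G2, namely miR-224/miR-452, miR-200b/miR-200a/miR-429, miR-182/miR-96/miR-183, miR-221/miR-222 and miR-192/miR-194. At miR-192/miR-194 the tested strands with a single genomic position were miR-192-5p and miR-194-3p, whereas miR-194-5p, which also comes from chromosome 1, was not called. No tested strand was called in 4 clusters, miR-425/miR-191, miR-143/miR-145, miR-421/miR-374b and miR-15b/miR-16-2.

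The balance between the strands of a hairpin was compared within each library, so that scaling plays no part. Of 120 hairpins with at least 50 reads over both strands in each library, 25 (20.8%) differed in the 5p to 3p ratio between the lines, 13 toward 5p and 12 toward 3p in BE(2)-C. The main strand switched at 3 of them. MiR-199b gave 27.7% and 23.0% in BE(2)-C against 91.5% and 93.8% in Hep-G2 as 5p, a difference of -5.19 ± 0.40 (SE, adjusted p = 0.00856) in the log2 ratio. Its relative miR-199a moved the other way, with 56.4% and 55.8% in BE(2)-C against 14.1% and 10.3% in Hep-G2, a difference of 3.14 ± 0.38 (SE, adjusted p = 0.0165). Because miR-199a-3p and miR-199b-3p have the same mature sequence (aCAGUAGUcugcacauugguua, seed in capitals), their reads cannot be assigned to either hairpin, and these ratios rest on the authors' assignment. The files nevertheless gave them unequal values, with miR-199a-3p at 1.96 and 2.05 times miR-199b-3p in BE(2)-C and 3.48 and 3.06 times in Hep-G2. MiR-30e, the third, gave 61.3% and 74.0% in BE(2)-C against 24.9% and 28.3% in Hep-G2 as 5p, a difference of 2.55 ± 0.46 (SE, adjusted p = 0.0357).

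Other hairpins changed their ratio without a switch. Toward 5p in BE(2)-C, miR-486 gave 99.0% and 98.5% in BE(2)-C against 89.9% and 82.3% in Hep-G2, miR-194 gave 99.3% and 99.6% in BE(2)-C against 93.7% and 93.1% in Hep-G2, miR-1304 gave 17.3% and 27.1% in BE(2)-C against 1.45% and 3.73% in Hep-G2, and miR-374a gave 49.3% and 69.6% in BE(2)-C against 16.3% and 16.6% in Hep-G2. Toward 3p, miR-3144 gave 2.15% and 2.43% in BE(2)-C against 18.3% and 21.9% in Hep-G2, and miR-550a gave 85.3% and 87.6% in BE(2)-C against 98.6% and 98.9% in Hep-G2. These 2 rest on few reads, with miR-3144-5p at 2 and 6 reads in BE(2)-C and miR-550a-3p at 1 and 1 in Hep-G2. Neither is among the hairpins with at least 5 reads of each strand in each library. MiR-194-5p is also encoded on chromosome 1 whereas miR-194-3p comes from chromosome 11 alone, so this ratio mixes hairpins, and miR-486, miR-550a and miR-199a have more than 1 genomic copy as well. The share of miR-374a lay on either side of the even point in the BE(2)-C replicates and far below it in Hep-G2. The other named hairpins, miR-381, miR-146a and miR-589 toward 3p and miR-99a toward 5p, belong to 6 called hairpins with a strand that had no read in at least 1 line. Their ratios follow the added 0.5 reads, and they are named only. With at least 5 reads of each strand in each library, 24 of 71 hairpins were called.

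The count of hairpins depended on which library was left out. It was 65 without BE(2)-C replicate 1 and 69 without replicate 2, but 0 by limma without either Hep-G2 library, where 23 and 24 hairpins had an unadjusted p under 0.05 against 46 with all 4. Without a Hep-G2 library, the spread is that of the BE(2)-C pair alone.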

How the data were processed

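Small RNA libraries of the parental lines BE(2)-C and Hep-G2 (2 each) were prepared and sequenced by Novogene. According to the submitters' processing notes, cutadapt 1.14, Bowtie2 2.3.2, SAMtools 1.5, featureCounts 1.5.3 and edgeR 3.30.3 were used with the build hg38. The authors deposited normalized values per miRNA (unit: signal, reads relative to the library total, divided by a factor set within the table of each line), from which whole reads were recovered for 100% of nonzero values (tolerance 0.0001). Scaling between lines was therefore set here. The 7 libraries of other lines, of which the authors deposited PANC-1 as CPM, entered only an alternative.

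Here 2813 entries were summed by name to 2588 miRNAs and each library was rescaled to the same total (CPM). Multi-copy reads cannot be placed. Those whose mean in either line reached 10 CPM were tested on log2(CPM + 1), which understates differences of low miRNAs, with limma 3.58.1 (R 4.3.3, Benjamini-Hochberg threshold 0.05), and again with TMM factors (edgeR 4.0.16). The ratio of 5p to 3p reads was tested in the same way for hairpins with 50 reads per library, after adding 0.5 reads to each strand. Intervals cover counting error only. The annotated loci were looked up by hairpin. DESeq2 1.42.0, edgeR on recovered reads, other pseudocounts and filters, a replicate block and leaving out each library were alternatives. The limma fits on CPM, with TMM factors and on strand ratios were tested on simulated data, whereas the seed sums and the alternatives were not. In the simulated levels the most abundant miRNAs were left unchanged. Named were the 10 most abundant miRNAs of each line, the 12 with the widest differences in each direction among those called with at least 100 CPM, 6 seeds of each line among those summed, 6 hairpins in each direction, the 6 that differed most between replicates, the markers, and abundant or deviating list members. Other miRNAs were named after their values were seen. Members and lists were chosen with earlier results of these data known. Sequences and positions came from RefSeq and the GRCh38 annotation. P-values measure the spread between these libraries.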

Additional observations from a re-analysis of the deposited data

How the results depend on the processing

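With 2 libraries a line, both grown and harvested differently, p-values cover little more than the spread of these 4 libraries, and low miRNAs of Hep-G2 were limited by depth. The number called on CPM kept within 1.5 times of 397 under all scalings and tools, but was 694 without a filter and 231 at a line mean of 100 CPM. The median difference of 3.59 was 1.45 with TMM factors, 1.32 with DESeq2 size factors, 2.10 on CPM without miR-148a-3p, 0.093 after quantile normalization, 2.63 with a pseudocount of 5, 0.59 without a filter, 1.62 in edgeR and 1.49 in DESeq2. The share of calls higher in BE(2)-C, 90.2% on CPM, was 76.1%, 73.6%, 81.8% and 54.5% under these 4 scalings, 76.8% in edgeR and 75.4% in DESeq2. The 25 hairpins were 15 at 10 reads, 14 at 200 reads and 50 with 5 reads added, and the 299 seeds that passed on CPM were 179 at 100 CPM. All seed counts in this section are of the test on CPM, and the 224 called on both scales were not followed through the alternatives. The log2 ratio of summed levels, with TMM factors, DESeq2 size factors and without miR-148a-3p, was 11.61, 11.45 and 12.20 for 14q32 (14.15 on CPM), -7.50, -7.65 and -6.92 for miR-200 (-4.98), 1.28, 1.138 and 1.90 for let-7 (3.83), and 0.39, 0.25 and 1.00 for miR-17-92 (2.94). Leaving out 1 library each, with the lone library taken to vary like the other line, gave 364 to 402 miRNAs on CPM, 222 to 296 on both scales, 281 to 300 seeds and 0 to 69 hairpins. Without a filter 383 and with all 11 libraries 257 were called on both scales, and with DESeq2 size factors in place of TMM 268. The no-filter and 11-library versions of this count, its block and the minimum of 5 reads per strand were chosen after seeing the data.

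Replicates share only a number (r = 0.134 between the deviations over 425 miRNAs). With the replicate block 404 miRNAs passed on CPM (366 higher in BE(2)-C), 284 on both scales, 298 seeds and 34 hairpins.

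Of 1590 values of 89 named miRNAs, 1444 kept direction and side of the threshold, 60 lost and 23 gained significance and 63 reversed, all of the latter positive on CPM except for miR-194-5p. With TMM factors, DESeq2 size factors, quantile normalization, edgeR and DESeq2 in this order, let-7f-5p was -0.22, -0.36, -1.04, -0.21 and -0.35, and miR-30d-5p -0.43, -0.58, -1.43, -0.43 and -0.57. When CPM without miR-148a-3p was placed after DESeq2 size factors, miR-1-3p was -1.35, -1.50, -0.75, -2.74, -1.34 and -1.50, miR-140-3p -1.78, -1.93, -1.18, -2.79, -1.78 and -1.93, miR-148b-3p -1.64, -1.79, -1.04, -2.49, -1.55 and -1.69, miR-151a-3p -1.38, -1.53, -0.78, -2.05, -1.17 and -1.34, and miR-423-5p -1.64, -1.79, -1.04, -2.88, -1.65 and -1.79. Under the first 4 of these, miR-122-5p was -1.98, -2.12, -1.52 and -3.0, and miR-184 -0.84, -0.98, -0.32 and -2.14. Leaving out 1 library each gave -3.05 to 3.84 for miR-122-5p, -1.24 to 4.38 for miR-184 and -0.52 to 0.17 for miR-194-5p, the ends being the fits without BE(2)-C replicate 1 and without replicate 2. MiR-26a-5p was -0.054 (TMM factors), -0.20 (DESeq2 size factors), -0.89 (quantile) and -0.13 (DESeq2), and miR-92a-3p -0.090 (DESeq2 size factors), -0.82 (quantile) and -0.075 (DESeq2). After quantile normalization alone, miR-101-3p was -0.75, miR-143-3p -0.38, miR-145-5p -1.45 and miR-374a-5p -0.95. MiR-194-5p was 0.61 for a genomic copy on its own. Leaving miR-148a-3p out of the library totals alone gave 2.10 for the median difference, and other causes of the shift between scales were not tested.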

Other observations

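Some miRNAs come from several hairpins that share 1 mature strand but differ in the other, so the second strand can show which copy gave reads. In BE(2)-C, 1 copy mostly led. The copies of miR-125b lay closer, with miR-125b-1-3p at 3343 and 2763 reads and miR-125b-2-3p at 2524 and 1914 reads. For miR-218, the strand of the SLIT3 copy (miR-218-2-3p) had 814 and 701 reads, and that of the SLIT2 copy (miR-218-1-3p) 4 and 1 reads. For miR-129, miR-129-2-3p had 429 and 378 reads and miR-129-1-3p 20 and 8 reads. At 14q32, miR-1185-1-3p had 4498 and 6571 reads and miR-1185-2-3p 555 and 827 reads. For miR-16, whose mature 5p strand comes from a copy beside miR-15a and one beside miR-15b, miR-16-2-3p had 848 and 1226 reads and miR-16-1-3p 61 and 56 reads in BE(2)-C. Second strands of different hairpins can differ in stability, so these reads need not give the output of each copy.

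The 15 miRNAs that passed with opposite signs on both scales, higher in BE(2)-C on CPM and in Hep-G2 with TMM factors, were miR-1-3p, miR-1180-3p, miR-128-1-5p, miR-1292-5p, miR-140-3p, miR-185-3p, miR-193b-5p, miR-29b-3p, miR-340-3p, miR-340-5p, miR-423-5p, miR-4473, miR-556-5p, miR-641 and miR-744-5p. The cartilage miRNA miR-140-3p, for example, was at 1300.1 and 1242 CPM in BE(2)-C compared with 696 and 814 CPM in Hep-G2, with a difference of 0.75 on CPM and -1.78 with TMM factors. MiR-423-5p was at 522 and 552 CPM in BE(2)-C compared with 266 and 312 CPM in Hep-G2, with a difference of 0.89 on CPM and -1.64 with TMM factors. For these, the libraries give no direction apart from the choice of scale.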
